A study of Mus musculus with 15 samples.

Results

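A group of 10 receptor kinase genes was followed in the H3K27ac map of a tumor from a mouse model of fusion-positive rhabdomyosarcoma (FP-RMS). The genes were Met, Alk, Ret, Axl, Mertk, Ddr1, Ddr2, Ntrk2, Ntrk3 and Ror2. H3K27ac, acetylation of lysine 27 on histone H3, is carried by nucleosomes at active promoters and enhancers. Peaks were taken when they touched the RefSeq span of one of these 10 genes or the 50 kb on either side, which gave 308 of the 122375 peaks in the list. A peak that reached within 2 kb of any annotated start site of its gene was called a promoter peak, any other peak touching the gene a gene body peak, and the rest flank peaks. No peak was shared between members.

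The series holds 15 CUT&RUN libraries of 2 mouse tumor models, with 6 MCP H3K27ac, 3 TCP H3K27ac, 3 MCP IgG and 3 TCP IgG libraries. The list used here is from MCP H3K27ac replicate 5, and the other libraries were not used here. MCP tumors carry Myf6-Cre, a Cre driver of the muscle lineage, together with floxed alleles of Cdkn2a on both chromosomes, a Cre-activated Pax3-Foxo1 fusion (P3F) at both Pax3 alleles and a tdTomato reporter at the Rosa26 locus, and TCP tumors carry Tek-Cre, an endothelial driver, in its place. Both models therefore lack Cdkn2a in recombined cells and express the fusion from the Pax3 locus, and live cells were sorted from tumors before CUT&RUN. With a single peak list there are no replicates, no difference between tumors or models could be tested, and all values below describe that library. In a bulk library, fewer cells carrying the mark and less of the mark per cell cannot be told apart.

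Receptor tyrosine kinases span the plasma membrane, bind a ligand outside the cell and phosphorylate tyrosines inside it, where adaptor proteins dock and pass the signal to the RAS and PI3K pathways. Met is the receptor of hepatocyte growth factor and guides migrating muscle precursors in the embryo. Alk is a neural receptor that is best known from fusions and mutations in cancer. Both genes are known targets of the PAX3-FOXO1 fusion in human FP-RMS.

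The list gave a fold enrichment over local background for each peak, and the number of fragments over each summit was solved from the fold enrichment and the p-value. The median peak of the list had 13 fragments over its summit (quartiles 10 and 17), which gives a relative Poisson error of 27.7%, and the 308 peaks at the receptor kinase genes had the same median. Small differences in fold between single peaks are therefore within counting error. The tumor label was set against marker genes of 4 cell types. None of 8 muscle genes (Myod1, Myog, Myf5, Pax7, Des, Chrnd, Chrna1 and Tnnt2) had a promoter peak, against 45.6% of all protein-coding genes, and 6 of the 8 had a peak within 50 kb, near the 76.3% over all protein-coding genes. Cd68 alone of 6 macrophage genes, none of 6 endothelial genes and Pdgfra alone of 6 fibroblast genes had a promoter peak. Ptprc, Csf1r, Adgre1, Itgam and Spi1 had none. Median peak density, per 100 kb of gene and flanks, was 12.3 for the muscle genes, 3.66 for macrophage, 6.05 for endothelial and 0.701 for fibroblast genes. The muscle genes thus had the highest median density of the 4 lists, but their promoters did not bear out a muscle tumor label. The study reports several tumor types in MCP mice, so the type of this tumor is not certain. Axl and Mertk are also expressed by macrophages and Ddr2 by fibroblasts, and the part of such cells in the values below was not tested.

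The sequences under the strongest promoter peaks are shown first, since they are the promoter-proximal DNA that carried the mark at Met, Axl, Mertk, Ddr1 and Ddr2, together with the strongest peak inside Alk, which had none at its promoter. Each runs 100 bases either side of the summit on the plus strand of mm10 (RefSeq GRCm38.p6) and is printed in lower case, and capitals mark a match to one of the motifs searched below.
Met, chr6:17465099-17465299: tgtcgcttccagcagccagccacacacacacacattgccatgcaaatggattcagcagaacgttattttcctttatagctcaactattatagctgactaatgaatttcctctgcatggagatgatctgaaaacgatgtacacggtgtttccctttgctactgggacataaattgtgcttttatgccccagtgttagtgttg
Axl, chr7:25787516-25787716: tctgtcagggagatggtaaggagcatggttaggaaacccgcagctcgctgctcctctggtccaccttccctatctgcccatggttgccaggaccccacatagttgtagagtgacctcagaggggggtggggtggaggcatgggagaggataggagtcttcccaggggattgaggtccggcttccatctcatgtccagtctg
Mertk, chr2:128699360-128699560: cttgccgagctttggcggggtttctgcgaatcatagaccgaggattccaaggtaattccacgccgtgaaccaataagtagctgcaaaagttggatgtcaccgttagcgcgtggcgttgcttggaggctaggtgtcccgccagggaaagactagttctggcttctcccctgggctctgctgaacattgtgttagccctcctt
Ddr1, chr17:35697486-35697686: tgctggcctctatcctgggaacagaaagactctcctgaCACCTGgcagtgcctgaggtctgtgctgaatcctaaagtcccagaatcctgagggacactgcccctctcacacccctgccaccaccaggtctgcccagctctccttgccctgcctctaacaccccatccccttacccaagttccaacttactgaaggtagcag
Ddr2, chr1:170112953-170113153: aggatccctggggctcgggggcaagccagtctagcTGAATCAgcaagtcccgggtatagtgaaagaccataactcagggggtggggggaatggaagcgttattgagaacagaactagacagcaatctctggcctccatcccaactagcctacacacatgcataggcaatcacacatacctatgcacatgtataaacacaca
Alk, chr17:71943863-71944063: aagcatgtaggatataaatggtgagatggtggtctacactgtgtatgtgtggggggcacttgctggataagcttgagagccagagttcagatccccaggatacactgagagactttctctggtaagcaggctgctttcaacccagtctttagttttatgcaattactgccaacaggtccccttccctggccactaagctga
The Mertk window lay 545 bp downstream of the curated start and held 11 CpG dinucleotides, against 4 in the Met window, 3 in those of Axl and Ddr2, and 0 in those of Ddr1 and Alk. GC content was 42.8% under the Met summit and 54.2% under the Mertk summit. Capitals in the Ddr1 window are an E-box read on the minus strand. Those in the Ddr2 window match the loose AP-1 pattern TGANTCA, with A as the middle base. No motif searched was found in the windows of Met, Axl, Mertk and Alk.

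A promoter peak was found at 5 of the 10 genes: Met, Axl, Mertk, Ddr1 and Ddr2 (Wilson 95% interval 23.7 to 76.3%, counting error only). Among the 21774 protein-coding genes, 45.6% had one, so the share among the receptor kinases was near the background. Alk, Ret, Ntrk2, Ntrk3 and Ror2 had no peak within 2 kb of any start site. A peak inside the gene was present at 7 of the 10 genes, against 49.5% of protein-coding genes, and a peak in the gene or within 50 kb at 9 of the 10, against 76.3%. Ntrk2 was the gene with none. These shares were not matched for gene length, and several members are long, with Alk at 736 kb and Ntrk3 at 401 kb.

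**Figure D1:**
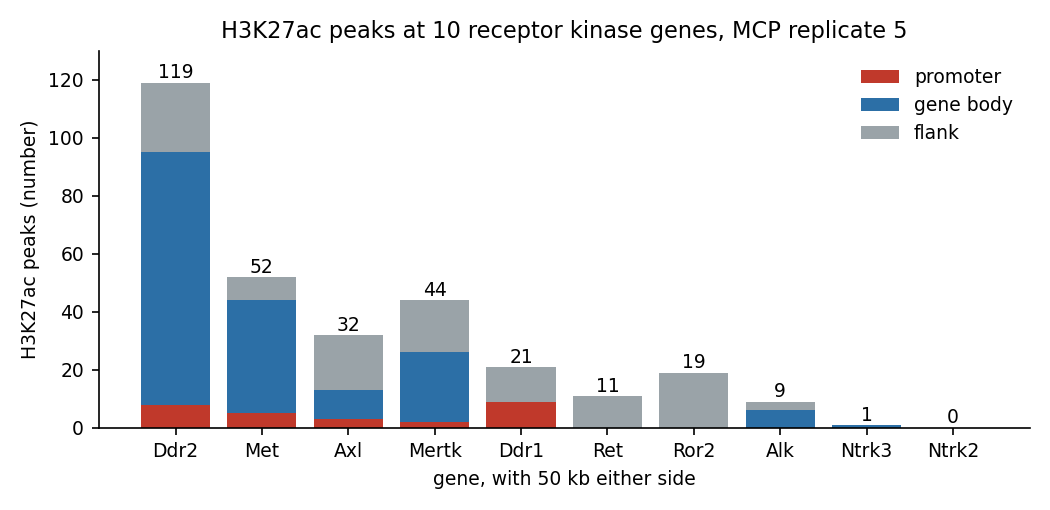
Bars give the number of H3K27ac peaks at each gene and 50 kb either side (y axis), stacked by promoter, gene body and flank and ordered by peaks per 100 kb. Ddr2 held 119 of the 308 peaks, Met 52 and Mertk 44, while Ret and Ror2 had flank peaks alone and Ntrk2 had none.

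By class, 27 of the 308 peaks were at promoters (8.77%, Wilson 95% interval 6.09 to 12.45%), 167 in gene bodies (54.2%, 48.6 to 59.7%) and 114 in flanks (37.0%, 31.8 to 42.5%). The gene body share rested largely on Ddr2, which held 87 of the 167. Many flank peaks belonged to other genes by position, as 70 of the 114 (61.4%) lay in another gene or at its promoter. Peaks also came in runs, and 179 of 299 pairs of neighboring peaks were under 500 bp apart, so a count of peaks is not a count of separate elements.

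Met carried the mark from its promoter to its 3′ end. The gene spans chr6:17463349-17573980 on the plus strand, and 5 promoter, 39 gene body and 8 flank peaks were found there. The strongest promoter peak, chr6:17464555-17465307, lay in intron 1 with its summit 1242 bp downstream of the curated start, and had a fold enrichment of 9.96 from 26 fragments. That fragment number was the better fitting of 2 solutions. The other 4 promoter peaks were lower, with folds of 2.90, 4.01, 4.87 and 5.05. Inside the gene the strongest was chr6:17561839-17563572 in intron 19 of 21, 98.9 kb from the nearest start, with a fold of 12.6 from 33 fragments. Besides it, 4 more gene body peaks were at least 1 kb wide, and the widest, chr6:17478166-17480529 in intron 1, measured 2364 bp with a fold of 11.5 from 38 fragments. The rest of these lay in introns 1, 3 and 6. Intron 3 held 13 peaks in 20.9 kb, the most of any Met intron. In the flanks the strongest peak, chr6:17612299-17612416, was 38.4 kb past the 3′ end with a fold of 6.13 from 15 fragments, and none of the 8 flank peaks lay in another gene. Flank folds ran from 3.50 to 6.13 with a median of 4.81, close to the median of 5.06 over all Met peaks, flanks included. The highest folds were inside the gene, which also held far more peaks than the flanks, so the 2 maxima are not on equal counts.

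Alk, the other known fusion target, was nearly bare. It spans 736 kb (chr17:71868988-72604702, minus strand) and held 6 peaks, all in introns of the 3′ part of the gene, and the summit nearest to either start site was 223 kb away, upstream of the gene. The strongest, chr17:71943834-71944046, was in intron 11 of 28, 660 kb from the nearest start, with a fold of 8.04 from 20 fragments. Intron 11 held 3 more peaks with folds between 4.36 and 4.79. The remaining pair lay in intron 8, with folds of 5.64 and 4.28. All 3 flank peaks of Alk fell in the neighboring gene Clip4, and the strongest of them, chr17:71835854-71835959, had a fold of 6.94 from 15 fragments. Density over Alk and its flanks was 1.08 peaks per 100 kb, against 24.7 at Met.

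**Figure D2:**
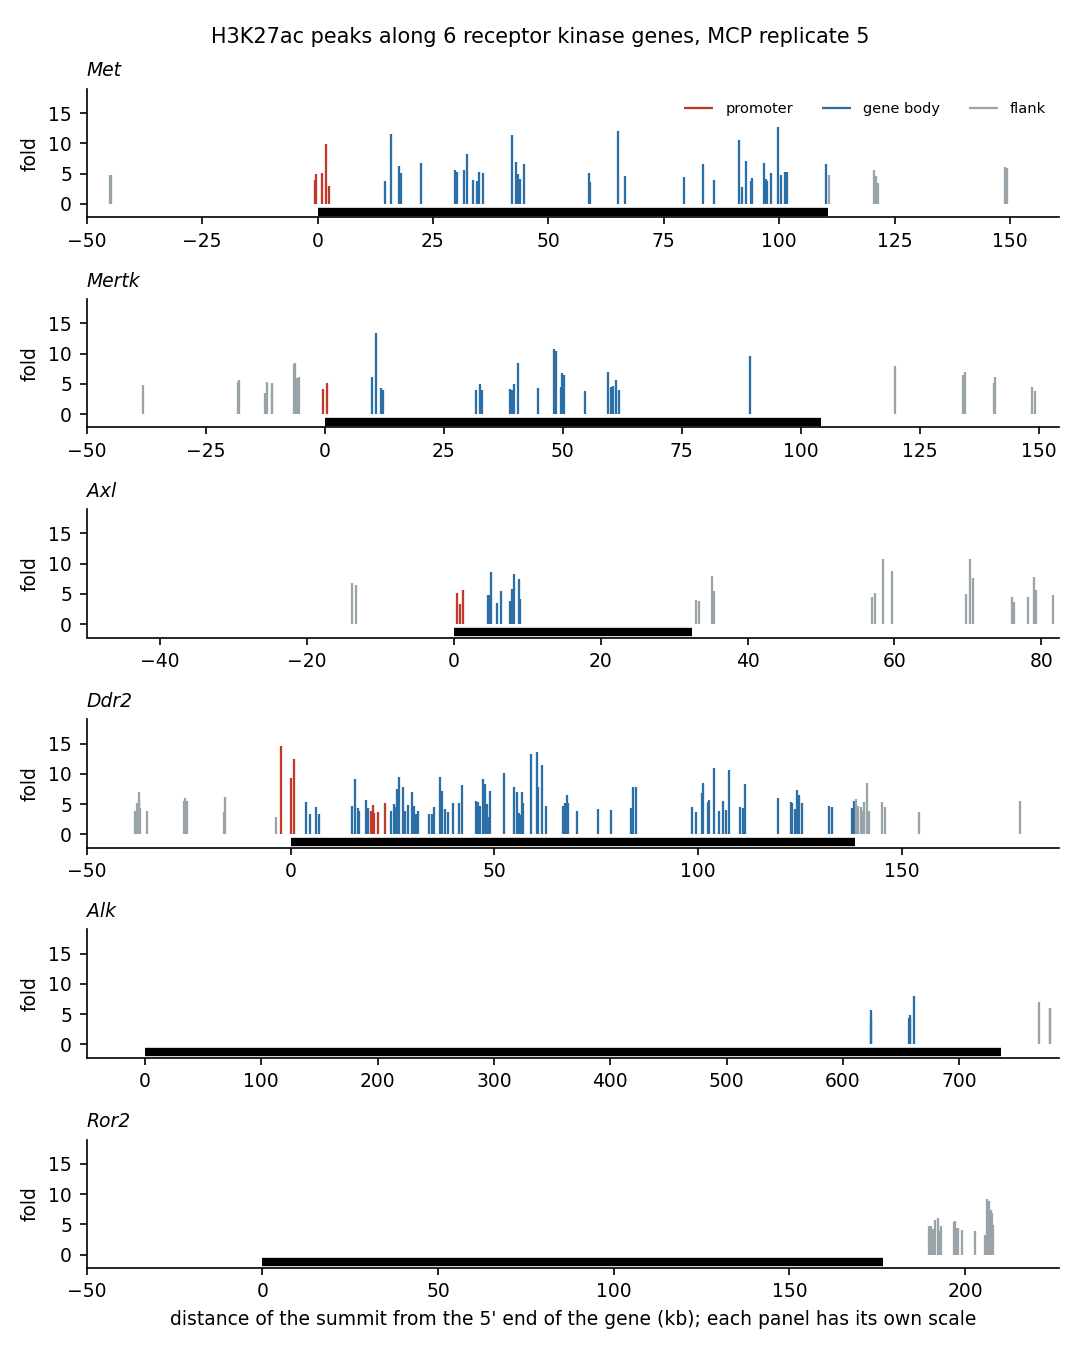
Vertical lines give the fold enrichment of each peak (y axis) at the distance of its summit from the 5′ end of the gene (x axis, kb, a separate scale in each panel), and the black bar is the gene. Met, Mertk and Ddr2 carried peaks along the gene, Axl near its 5′ end, Alk in its 3′ part, and Ror2 beyond its 3′ end alone.

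Axl and Mertk belong to the TAM receptors, which bind Gas6 and protein S (Pros1) and take part in clearing dying cells and in tumor cell survival. At Axl (chr7:25756500-25788924, minus strand) the 3 promoter peaks were low, with folds of 5.65, 5.22 and 3.28 from 10 to 12 fragments. The strongest of these, chr7:25787586-25787666, lay in intron 1, 1117 bp downstream of the curated start. All 10 gene body peaks stood in intron 4, which is 7.13 kb long, and the strongest, chr7:25783594-25783859, had a fold of 8.58 from 19 fragments. Flank peaks were more numerous, 19 in all, and 14 of them lay in another gene or at its promoter. The strongest, chr7:25718529-25719009, was at the promoter of Ccdc97 with a fold of 10.8 from 24 fragments. The highest values in the Axl window were thus at its neighbors Ccdc97 and Hnrnpul1, since a peak inside Hnrnpul1, chr7:25729760-25731036, had the same fold of 10.8.

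Mertk (chr2:128698915-128803162, plus strand) had 2 promoter peaks, 24 gene body peaks and 18 flank peaks. Both promoter peaks also lay within 2 kb of a start of the predicted gene Gm39931. The stronger promoter peak, chr2:128699412-128699767, had a fold of 5.14 from 16 fragments. It was far below the strongest gene body peak, chr2:128709079-128710160 in intron 1, with a fold of 13.4 from 30 fragments. A broad peak in intron 4, chr2:128745780-128747291, measured 1512 bp and had a fold of 10.8 from 24 fragments, and intron 4 held 8 of the 24 peaks inside Mertk introns. Each of the 18 flank peaks lay in another gene or at its promoter, with the strongest, chr2:128692617-128692980, 6.16 kb upstream of the start and inside the predicted gene Gm39931, at a fold of 8.42 from 21 fragments. Anapc1 and Tmem87b, the neighbors upstream and downstream, had promoter peaks of their own. At both TAM receptors the highest fold inside the gene was in an intron peak away from the start sites.

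Ddr1 and Ddr2 are the discoidin domain receptors, which are activated by collagen rather than by a soluble growth factor. Ddr2 held the most peaks of the 10 genes, 119, with 8 at promoters, 87 in the gene body and 24 in the flanks. RefSeq gives Ddr2 (chr1:169972307-170110836, minus strand) a curated start at 170088944 and predicted starts between 170110501 and 170110836. The strongest promoter peak, chr1:170111291-170114077, lay at the predicted starts, measured 2787 bp and had a fold of 14.7 from 40 fragments. Its summit was 2.22 kb upstream of the nearest of them, so it was a promoter peak by its edge. A second broad peak, chr1:170107356-170110483, covered 3128 bp just downstream of them with a fold of 12.4 from 41 fragments. At the curated start the highest of 5 peaks reached a fold of 5.22 from 11 fragments. The mark was thus higher at the predicted starts than at the curated one.

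Within Ddr2, intron 1 of the curated transcript held 48 peaks in 52.8 kb and included the strongest gene body peak, chr1:170050273-170051164, with a fold of 13.6 from 31 fragments. Next to it, chr1:170051245-170053571 had a fold of 13.3 from 35 fragments. The widest peak of any member, chr1:170056654-170060027, was also in intron 1 and measured 3374 bp with a fold of 10.2 from 39 fragments. Intron 2 held 12 peaks. In the flanks the strongest peak, chr1:169969462-169969624, was 2.78 kb past the 3′ end and at the promoters of Hsd17b7 and 3110045C21Rik, with a fold of 8.44 from 30 fragments. Of the 24 Ddr2 flank peaks, 18 lay in another gene or at its promoter.

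Ddr1 (chr17:35681567-35704741, minus strand) showed the opposite arrangement, with 9 promoter peaks, 12 flank peaks and none left for the gene body class. It is a short gene of 23.2 kb with 13 annotated start sites spread over its 5′ part, so peaks that would count as intronic elsewhere lay within 2 kb of a start. The strongest, chr17:35696604-35697661, stood at a predicted internal start, in intron 2 of the longest curated transcript, with a fold of 11.2 from 25 fragments. Peaks at chr17:35701568-35701693 (fold 9.96) and chr17:35698266-35698704 (fold 8.76) were next. The pair at the 5′-most starts were lower, with folds of 5.22 and 5.65 from 11 and 12 fragments. This pair also lay within 2 kb of a start of Gm4577. The strongest peak and the peak of fold 8.76 also lay within 2 kb of a start of LOC115488883. In the flanks the strongest peak, chr17:35666662-35667122, was at the promoter of Vars2 with a fold of 6.51 from 14 fragments, and Gtf2h4 and Mucl3 each had a promoter peak as well.

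Ret, the receptor of the glial cell line-derived neurotrophic factor (GDNF) family, and Ror2, a receptor of Wnt5a, had flank peaks alone. The 11 peaks near Ret (chr6:118151748-118197744, minus strand) lay 12.4 to 37.6 kb past its 3′ end and all in or at the promoter of Csgalnact2. The strongest, chr6:118126487-118126722, had a fold of 7.47 from 17 fragments. At Ror2 (chr13:53109317-53286124, minus strand) the 19 peaks formed a group 13 to 31.2 kb past the 3′ end, which held no other annotated gene. The strongest, chr13:53079847-53080182, had a fold of 9.10 from 22 fragments, and the peak beside it, chr13:53079121-53079354, had 8.80 from 22. Peaks near Ret thus stood in a neighboring gene that had promoter peaks of its own, while those near Ror2 had no start site of any gene within 2 kb.

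Ntrk2 and Ntrk3, the receptors of brain-derived neurotrophic factor and neurotrophin-3, were almost without peaks. Ntrk2 (chr13:58806472-59133970, plus strand) had none in its 427 kb window, and the closest summit to any of its 8 start sites was 175 kb away. Ntrk3 (chr7:78179986-78581034, minus strand) had a single peak in intron 1, chr7:78526191-78526271, with a fold of 4.79 from 10 fragments. A peak list shows only regions past the caller's threshold, so weaker acetylation at these genes was not detectable at this depth.

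**Figure D3:**
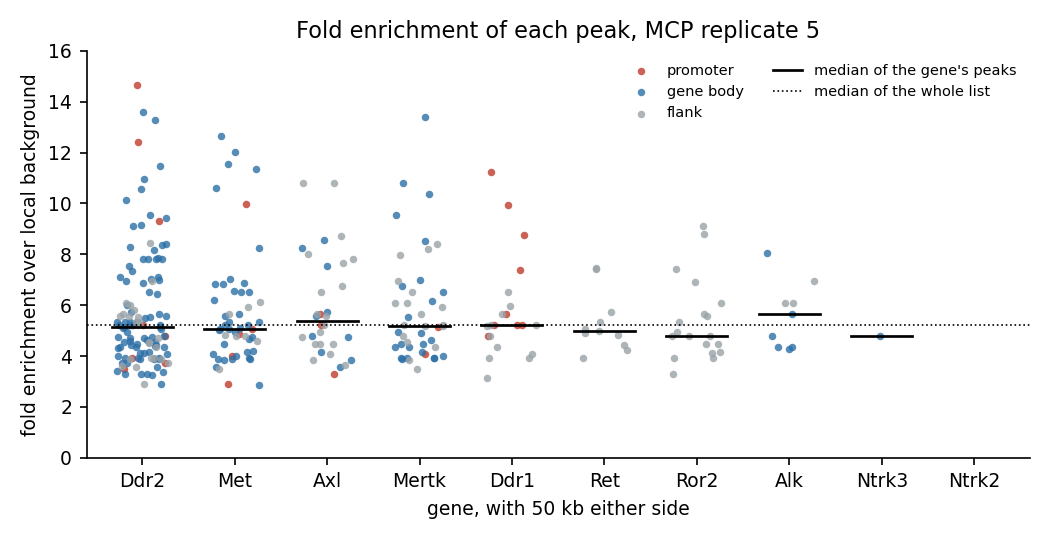
Points give the fold enrichment over local background (y axis) of each of the 308 peaks, by gene and class, with a black bar at the median of the gene's peaks and a dotted line at 5.22, the median of the whole list. Medians lay between 4.79 and 5.64 in the genes with peaks, and the highest single values were at Ddr2 (14.7), Mertk (13.4) and Met (12.6).

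The peaks at the receptor kinases were neither higher nor lower in the middle of their distribution than the rest of the list. Median fold was 5.17 (quartiles 4.36 and 6.53) against 5.22 (4.36 and 6.51) over all peaks. Gene by gene it ran from 4.79 at Ror2 and Ntrk3 to 5.64 at Alk, a range smaller than the spread within any gene with more than 1 peak. Widths differed more at the upper end. At least 1 kb was covered by 24 of the 308 peaks (7.79%), against 4.74% of the list, and 11 of the 24 were at Ddr2 and 5 at Met. Alk, Ret, Ror2 and Ntrk3 had none that wide.

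Peak density set the members apart from each other more than fold did. Over the gene and 50 kb either side, Ddr2 had 49.9 peaks per 100 kb (exact Poisson 95% interval 41.3 to 59.7), at the 99.8th percentile of protein-coding genes. Met had 24.7 (18.4 to 32.4) and Axl 24.2 (16.5 to 34.1), at the 94.0th and 93.6th percentiles. Mertk followed with 21.5 (15.7 to 28.9) and Ddr1 with 17.0 (10.6 to 26.1). The intervals of Met, Axl, Mertk and Ddr1 overlapped, so their order was within counting error, while that of Ddr2 stood clear of all other members.

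The share of bases under peaks gave the same order at the top. Peaks covered 50.2 kb of the Ddr2 window (21%) and 23.1 kb of the Met window (11.0%). Coverage was 7.92% at Axl, 6.47% at Mertk and 4.52% at Ddr1, and 0.156% at Alk.

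Ret had 7.53 peaks per 100 kb (3.76 to 13.5) and Ror2 6.86 (4.13 to 10.7), near the median of 5.36 for protein-coding genes. Alk was low at 1.08 (0.492 to 2.04), at the 28.5th percentile, and Ntrk3 had 0.200. In all, 7 of the 10 genes lay above the median. Intervals cover counting error only, and since peaks come in runs they are too narrow. Among the 6 chromosomes that carry these genes, density ran from 4.21 peaks per 100 kb on chromosome 13 to 6.07 on chromosome 1, and the ratio of gene to chromosome was 8.21 at Ddr2, 5.47 at Axl, 4.15 at both Met and Mertk, and 0.217 at Alk.

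**Figure D4:**
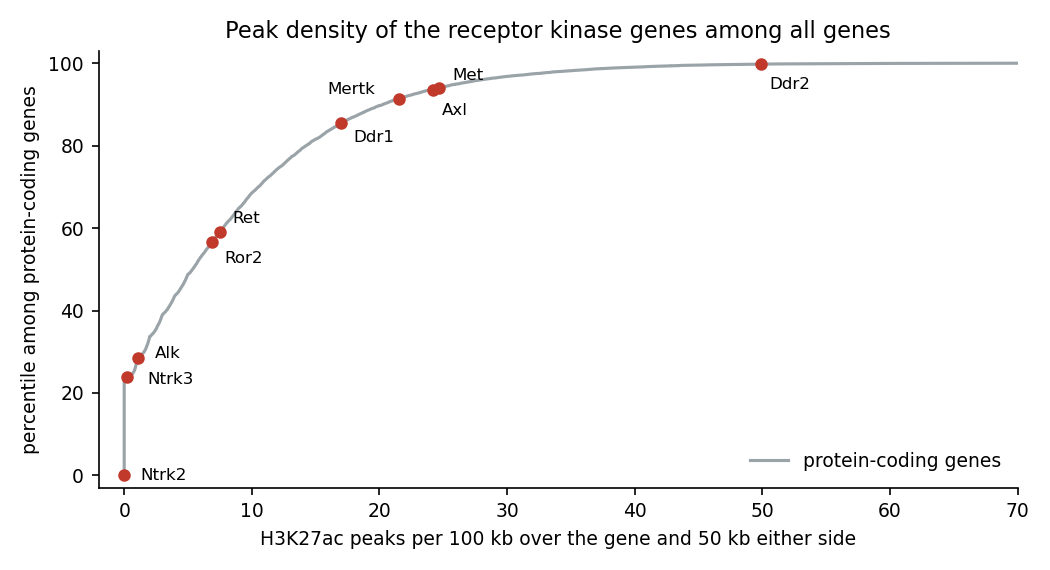
Red points place each receptor kinase gene by its peaks per 100 kb (x axis) and its percentile among 21774 protein-coding genes (y axis), whose cumulative distribution is the gray line (drawn to 70 peaks per 100 kb). Ddr2 stood at 49.9, Met, Axl, Mertk and Ddr1 between 17.0 and 24.7, and Alk, Ntrk3 and Ntrk2 at the lower end.

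Neighboring peaks were joined into clusters at the stitching distance named in the study's methods, leaving out those wholly within 1 kb of a start site. Clusters were ranked by fold times width summed over their peaks. The study called super-enhancers with the ROSE algorithm on reads, which were not used here. These clusters and ranks are therefore not its super-enhancer calls. Of 20526 clusters, 864 lay above the point where the ranked curve turns. Such a cluster overlapped Met and Ddr2 among the 10 genes, against 4.28% of protein-coding genes, a share not matched for gene length. At Ddr2, chr1:170025849-170148937 joined 81 peaks over 123 kb and ranked 14, and chr1:169956648-170012285 joined 32 peaks and ranked 337. Of these spans 69% and 71.9% lay inside Ddr2, and the rest reached into its flanks and neighboring genes. The cluster of 81 peaks kept the broad promoter peaks of 2787 and 3128 bp, which reached past 1 kb from the predicted starts. Its rank thus does not rest on distal peaks alone. At Met, chr6:17464555-17508233 joined 20 peaks over 43.7 kb from the promoter onward and ranked 344. A cluster over the 3′ part of the gene, chr6:17546432-17584787, ranked 661, with 71.8% of its span inside the gene. Mertk had a cluster of 19 peaks over 30.2 kb at rank 914, just below the limit. Clusters at Axl, Ddr1, Alk and Ntrk3 ranked between 2670 and 19143.

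Promoter CpG content separates genes with and without promoter peaks in the list as a whole, so the members were placed on that scale. In the lowest decile of CpG content within 500 bp of the curated start, 4.46% of genes had a promoter peak, and in the highest 74.1%. Ror2 was in decile 10 with 9.49 CpG per 100 bases and had no promoter peak. Alk and Ntrk3 in decile 8, Ntrk2 in decile 7 and Ret in decile 6 also had none, where 63.5 to 71.4% of genes had one. Ddr2 was in decile 2 by its curated start, where 10.2% of genes had a promoter peak, but its stronger peaks lay at the predicted starts, which fell in decile 4. Ddr1 was in decile 4 by its 5′-most curated start, where 28.6% of genes had a promoter peak, while its curated start at 35700590 held 8.29 CpG per 100 bases, which is decile 9, and had 6 peaks within 2 kb with folds up to 9.96. Met in decile 9, Mertk in decile 6 and Axl in decile 5 had a promoter peak. The curated starts of the receptor kinases without promoter peaks were thus all in deciles 6 to 10, a range that Met and Mertk shared. The place of Ddr1 and Ddr2 on this scale depended on the start site taken.

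**Figure D5:**
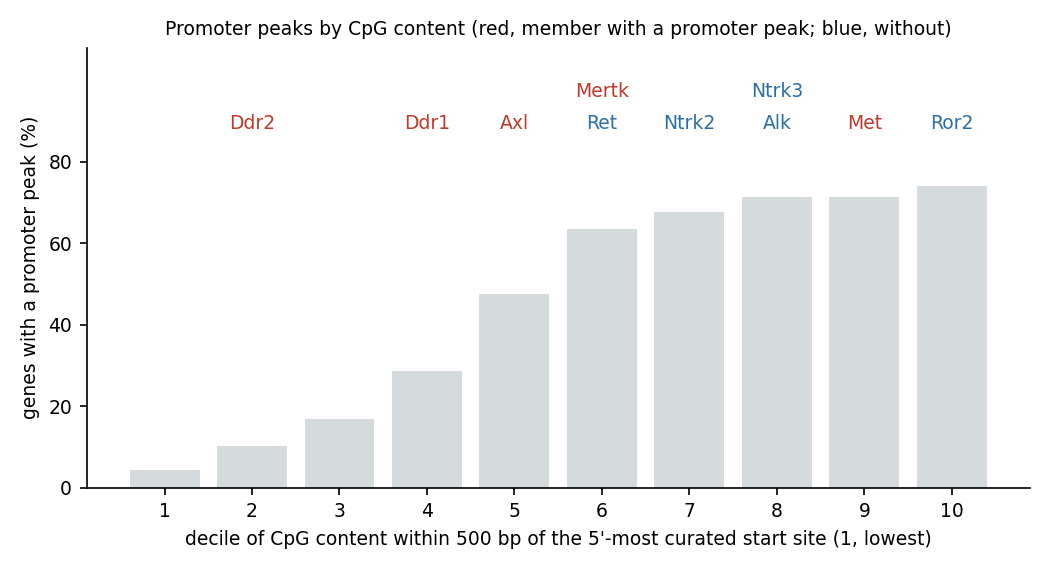
Gray bars give the percentage of protein-coding genes with a promoter peak (y axis) by decile of CpG content at the 5′-most curated start site (x axis), and gene names mark the decile of each member, in red with a promoter peak and in blue without. All 5 blue names, and the red names Met and Mertk, stand in deciles 6 to 10, where 63.5 to 74.1% of genes had a promoter peak.

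Motifs were searched as exact letters on both strands within 100 bp of each summit, and none of the motifs contains another. GTCACG, the core bound by the PAX paired domain, was found at 9 of the 308 peaks (2.92%, Wilson 95% interval 1.54 to 5.46%), against 2.58% of all peaks. Of the 9, 5 were in the Axl window and 1 of these in Axl intron 4, while Met and Alk had none. TAATNNATTA, the site of a PAX3 homeodomain dimer, was at 0 of the 308 peaks (Wilson 95% interval 0 to 1.23%), against 0.450% of the list. The forkhead motif TGTTTAC was at 13 peaks, 3 each at Met, Mertk and Ddr2, 2 at Ddr1 and 1 each at Axl and Ret (4.22%, interval 2.48 to 7.09%), against 3.27%. At Met the forkhead letters were found at peaks of intron 1, chr6:17480623-17480986 (fold 6.21) and chr6:17481328-17481428 (fold 5.04), and of intron 18, chr6:17559897-17560264 (fold 6.82). The share in the whole list lay inside the counting interval of the members' share for each of these motifs.

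The E-boxes bound by myogenic factors were as frequent as elsewhere, with CAGCTG at 28 peaks (9.09%, against 10.0% of the list) and CAGGTG at 38 (12.3%, against 12.4%). TGANTCA, an AP-1 pattern that takes any middle base and is looser than the AP-1 consensus, was at 29 peaks (9.42%, against 8.05%). Of these, 17 were at Ddr2. They made up 14.3% of the 119 Ddr2 peaks, against 6.35% of the 189 peaks pooled over the other members. Matches were at 2 of 11 peaks at Ret, 1 of 9 at Alk, 2 of 21 at Ddr1 and 2 of 32 at Axl. Met had 2 of 52, Mertk 2 of 44, Ror2 1 of 19 and Ntrk3 0 of 1. Neighboring Ddr2 peaks were under 500 bp apart in 78 of 118 pairs, so they are not all separate elements. A difference between Ddr2 and the other members was not tested. A match is a stretch of letters and not a measured binding event.

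Among the ligand genes of these receptors, the share with a promoter peak had a counting interval that held the share of all protein-coding genes. Of 15 ligand genes, 4 had one (26.7%, Wilson 95% interval 10.9 to 52.0%, against 45.6% of protein-coding genes): Hgf, the ligand of Met, with a highest fold of 6.94 from 15 fragments, Pros1, a ligand of the TAM receptors, with 6.17 from 20, Gdnf, a ligand of Ret, with 4.79 from 10, and Ptn, a proposed ligand of Alk, with 4.46 from 14. Among the 16 listed pairs of a ligand and its receptor, both had a promoter peak in 2, Hgf with Met and Pros1 with Mertk. Neither did in 10. Pros1 was listed with Mertk and not with Axl, so that pair was not counted. No share over all genes was set beside these pair counts. Gas6, Bdnf, Ntf3 and Wnt5a had no peak in the gene or within 50 kb. The Alk ligand genes Alkal1, Alkal2 and Mdk, the Ret ligand genes Nrtn, Artn and Pspn, and the Ntrk2 ligand gene Ntf5 had flank peaks without one at the promoter. The receptor alone had one in 2 pairs, Gas6 with Axl and Gas6 with Mertk, and the ligand alone in 2, Gdnf with Ret and Ptn with Alk.

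The promoter was marked at 4 of 10 co-receptor genes (40.0%, Wilson 95% interval 16.8 to 68.7%), near the 45.6% of protein-coding genes. Cd44, a hyaluronan receptor whose variant forms assist Met, had the highest fold, 11.2 from 25 fragments, and 56.7 peaks per 100 kb, at the 99.9th percentile. Plxnb1, a semaphorin receptor that associates with Met, followed with 9.10 and the Wnt receptor Fzd7 with 5.97. The GDNF co-receptors Gfra1, Gfra2, Gfra3 and Gfra4 had none. Of 6 sister receptors, Ptk7 (fold 8.67) and Musk (5.05) had a promoter peak, and Mst1r, Ltk, Tyro3 and Ror1 did not (33.3%, interval 9.68 to 70.0%, which holds the 45.6% of protein-coding genes).

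Promoter peaks stood at 18 of the 23 adaptor genes (78.3%, Wilson 95% interval 58.1 to 90.3%, against 45.6% of protein-coding genes), the highest share of these lists. That comparison was not matched for promoter CpG content. In CpG deciles 8 to 10, 71.4 to 74.1% of genes had a promoter peak, which lies inside the interval of the adaptors. The highest folds were at Ptpn11, the phosphatase SHP2, with 12.1 from 27 fragments, at the ubiquitin ligase gene Cbl with 10.8 and at the RAS exchange factor gene Sos2 with 9.96. Gab1, the docking protein of Met, reached 9.10. Of 47 other receptor tyrosine kinase genes, which include the sister receptors, 19 had a promoter peak (40.4%, interval 27.6 to 54.7%), a share near the 45.6% of protein-coding genes. Their highest densities were at Fgfr1 with 38.2 peaks per 100 kb, Egfr with 37.1 and Styk1 with 32.3, all below Ddr2 and above Met.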

How the data were processed

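H3K27ac CUT&RUN was done on sorted live tumor cells of the 2 models, and 1 deposited peak list, of MCP H3K27ac replicate 5, was analyzed. Its peak names carry a library number that the labels give for this sample alone, although the label's description counts it as number 1 of its kind. Per the submitters' processing notes the tools were BWA, SAMtools and MACS2 with the mm10 build. The study's methods instead name bowtie and an earlier MACS release with each sample's IgG as control, so the caller's settings are not certain. The largest q in the list was 0.0471. For each peak the authors deposited a fold enrichment over local background, a ratio at the summit, with -log10 p and -log10 q, and a score equal to the whole part of 10 times -log10 q. The deposited summit offset gave the summit position.

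Gene spans and start sites came from RefSeq GRCm38.p6, whose chromosome lengths fit the coordinates. Overlap meant at least 1 bp. Fragments over each summit were solved as whole numbers from fold and -log10 p, which gave a solution within 0.01 for 100% of the peaks, and a single one for 96.8%. The scale fitted in that solution put the H3K27ac library at 1.13 times the depth of its control, taken to be its IgG library. It rests on an assumed form of the caller's formulas, since the list states no depth. Of the peak numbers in the file 584 were absent, none of them in the windows used here. Intervals cover counting error only. Fragment recovery, peak classes, stitching and overlap counting were tested on simulated data. Python 3.11.15, pandas 2.3.3, numpy 2.4.6 and scipy 1.17.1 were used.

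All 10 genes are named, each with its strongest peak at the promoter, in the body and in the flanks, and for other lists all ligands, the 3 genes with the highest promoter fold, or for other receptor tyrosine kinases the 3 densest. Clip4, Gab1, the other genes listed without a promoter peak and the marker genes were added after values were seen. A gene of the receptor lists is not reported here and was left out of their counts. The receptor genes and the gene lists were chosen with earlier results of these data known. Alternatives were a stricter q, the strongest 25% of the peaks, other promoter, flank and stitching distances, other overlap rules, and curated or GENCODE start sites.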

Additional observations from a re-analysis of the deposited data

How the results depend on the processing

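No paired analysis was possible because a single peak list was used. With peaks of -log10 q of at least 5, the receptor kinase genes held 153 peaks in place of 308, and median fold was 6.56 in place of 5.17. With the strongest 25% of the peaks they held 85, the gene body share was 62.4% and the flank share 28.2%, and 3 genes had a promoter peak (Met, Ddr1 and Ddr2), while Axl and Mertk did not. Under that setting a promoter peak was left at 2 ligands in place of 4, at 1 sister receptor in place of 2 and at 9 other receptor tyrosine kinases in place of 19. Flanks of 25 kb gave a gene body share of 64.7% and a flank share of 24.8%. Leaving out flank peaks in other genes, an alternative chosen after seeing the data, left 238 peaks. Stitching within 5 kb placed 3 of the receptor kinase genes in a cluster above the limit, in place of 2. The same 5 genes had a promoter peak with a 1 kb promoter, with summit or 50% overlap, with curated transcripts, with GENCODE start sites and with -log10 q of at least 5. The same 7 genes (Met, Ret, Axl, Mertk, Ddr1, Ddr2 and Ror2) lay above the median density by bases covered, by the strongest 25% of the peaks and within their own chromosome. Over the gene body alone Ret and Ror2 fell to 0 and Alk and Ntrk3 took their place, at the 51.2nd and 50.6th percentiles, where the median gene has no peak and a single one is enough to pass it. The density percentile of a gene stayed within its counting interval in 30 comparisons and left it in 10. With a median of 13 fragments over a summit, depth limits what can be said of single low peaks and of genes without peaks.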
